A study of Mus musculus with 6 samples.

Results

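Cadherins and protocadherins were followed in mouse embryonic stem (ES) cells in which the transcription factor Sp5 was induced. The members were the rows of the authors' gene table whose symbol was Cdh or Cdhr with a number, or began with Pcdh. This rule found 62 of 36699 rows. Of these, 25 rows lay in the clustered protocadherin loci of chromosome 18 and 37 elsewhere. The clustered rows are described apart because their genes lie side by side and may share reads. Some nonclustered rows also have the same locus as another row of the table.

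Classical cadherins are calcium-dependent adhesion proteins whose outer domains bind cadherins of neighbouring cells and whose cytoplasmic tails bind beta-catenin and p120-catenin at adherens junctions. Type I cadherins such as E-cadherin hold epithelia and the pluripotent epiblast together, and cells that leave the epiblast through the primitive streak are known to exchange E-cadherin for N-cadherin. Type II cadherins are used mostly by mesenchyme, endothelium and neurons. Protocadherins lack the catenin-binding tail, and the clustered protocadherins give single neurons a surface identity through promoter choice.

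The cells were A2Lox.cre ES cells, a line with a doxycycline-responsive site for an inducible transgene, here Flag-tagged Sp5. They had been grown on mouse embryonic fibroblast feeders, were stripped of them and formed embryoid bodies for 3 days in both groups. One group of 3 libraries received no doxycycline (minus group) and the other group of 3 received it for 24 hours from day 2 (plus group). Both groups came from this 1 line, and with no doxycycline control lacking the transgene among the samples used, drug and transgene cannot be told apart. The labels do not say that replicates were separate cultures, so the authors' p-values may measure technical spread only.

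Expression was given as FPKM, fragments scaled to transcript length and library size, with 1 value per group that combined its 3 libraries. Values per library were not analysed here, so no SD can be given and no overlap between libraries can be read. The standard error (SE) of each log2 fold change was obtained as the fold change divided by the test statistic in the authors' deposited table. "Rose" and "fell" are used of rows with status OK and q under 0.05 in that table, with plus set against minus. Depth is unknown. Sp5 itself stood at 0.769 FPKM in the minus group and 126 FPKM in the plus group. The median log2 fold change over tested rows at 1 FPKM or more was -0.044. Of 6 pluripotent cell markers, all had at least 45.8 FPKM in both groups, but 4 were called in the authors' deposited table. The called share was 66.7%, beside 23.2% of all tested rows. Nanog rose (46.0 to 117 FPKM), Utf1 (314 to 119 FPKM), Lin28a and Dppa4 fell, and Pou5f1 and Sox2 had no call. The list's sums of 1616 and 1515 FPKM were mostly Pou5f1 (999 and 1058 FPKM).

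Transcripts of the family were mostly those of Cdh1, which made up 75.7% of the members' summed FPKM in the minus group and 68.3% in the plus group. The sum went from 177 to 146 FPKM. Next in the minus group were Pcdh1 (14.4 FPKM), Cdh2 (6.15), Cdh3 (5.32), Cdh24 (3.88), the Pcdhga8 row (3.24), Cdh10 (2.13) and Cdh9 (1.29). In the plus group Cdh1 was followed by the Pcdhga8 row (9.41 FPKM), Cdh3 (6.22), Pcdh1 (6.08), Cdh2 (5.37), Cdh24 (3.94) and Cdhr1 (3.20). These values have no error, so neighbours in either order cannot be separated. Members at 1 FPKM or more numbered 8 without and 11 with doxycycline, and 50 of the 62 rows stayed under 1 FPKM in both groups. Cdhr1, Cdh11, Pcdh18 and Pcdh7 crossed 1 FPKM upwards and Cdh9 crossed it downwards. The plot of levels by subfamily shows this change of order.

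**Figure D1:**
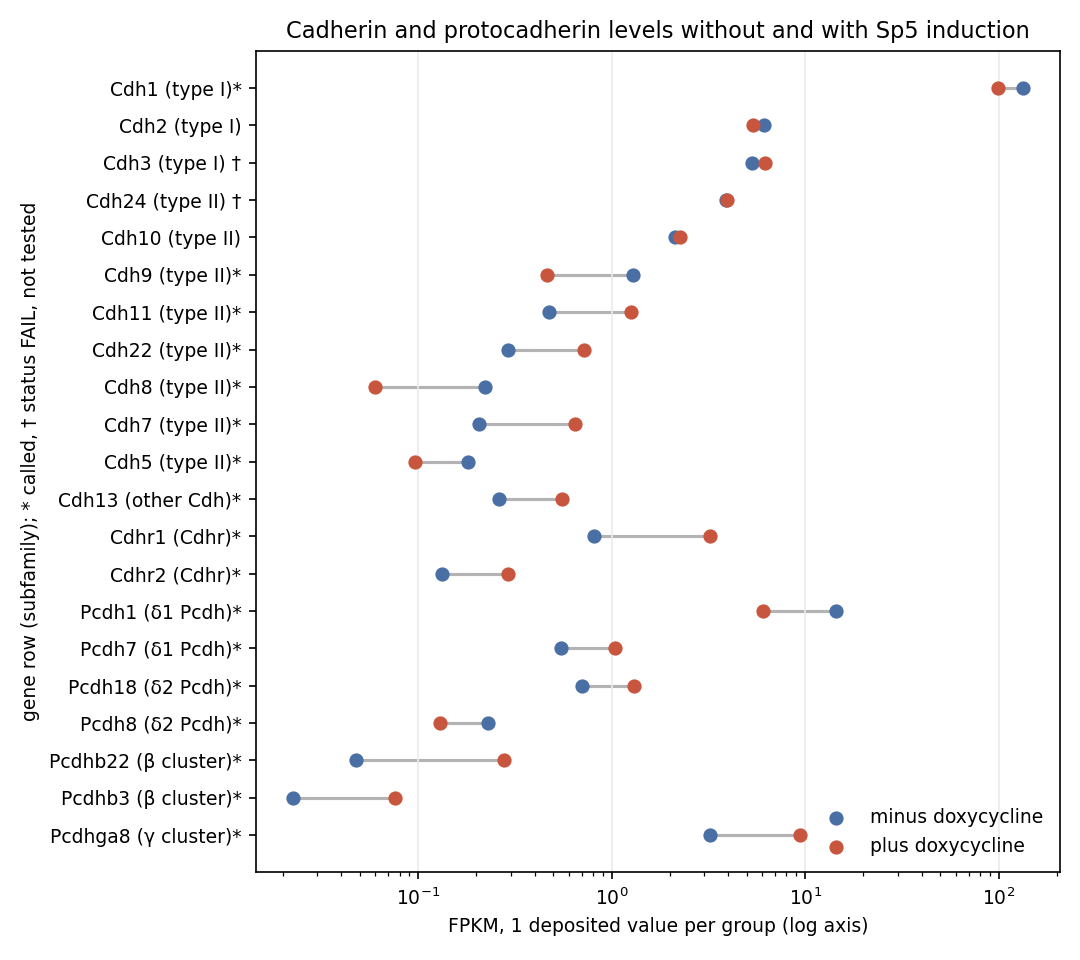
FPKM of each member that was called or reached 1 FPKM, on a log axis, with the minus group in blue and the plus group in red and a grey line joining the 2 deposited group values; there is no error bar because each group has 1 value. Cdh1 stands at 134 and 99.7 FPKM, above every other row, while Pcdh1 stands above the Pcdhga8 row in the minus group and below it in the plus group.

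Of the 62 members, 30 were tested, 30 had status NOTEST (too few fragments for Cuffdiff to test, none above 0.0669 FPKM) and 2 had status FAIL (no test completed). By the q of the authors' deposited table, 11 members rose, 6 fell and 13 were tested without a call. The share called was 56.7% of the 30 tested members, beside 23.2% of all 18537 tested rows, of which 10.5% rose and 12.7% fell. For 5 of the tested members the lower group was no higher than the highest untested value of the table, 0.0678 FPKM, so they could be tested through the higher group alone. The members' share is therefore a description and not a result about the family. At 1 FPKM or more in a group, 8 of 10 tested members were called, beside 28.3% of all such rows. Of these 8, Cdhr1, Cdh11, Pcdh18, Pcdh7 and Cdh9 (5 members) reached 1 FPKM in their higher group only, so this share has the same limit. The tested members' median difference in log2(FPKM + 1) was 0.059, beside -0.015 over all tested rows. Without a pseudocount it was 0.40, beside -0.029.

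**Figure D2:**
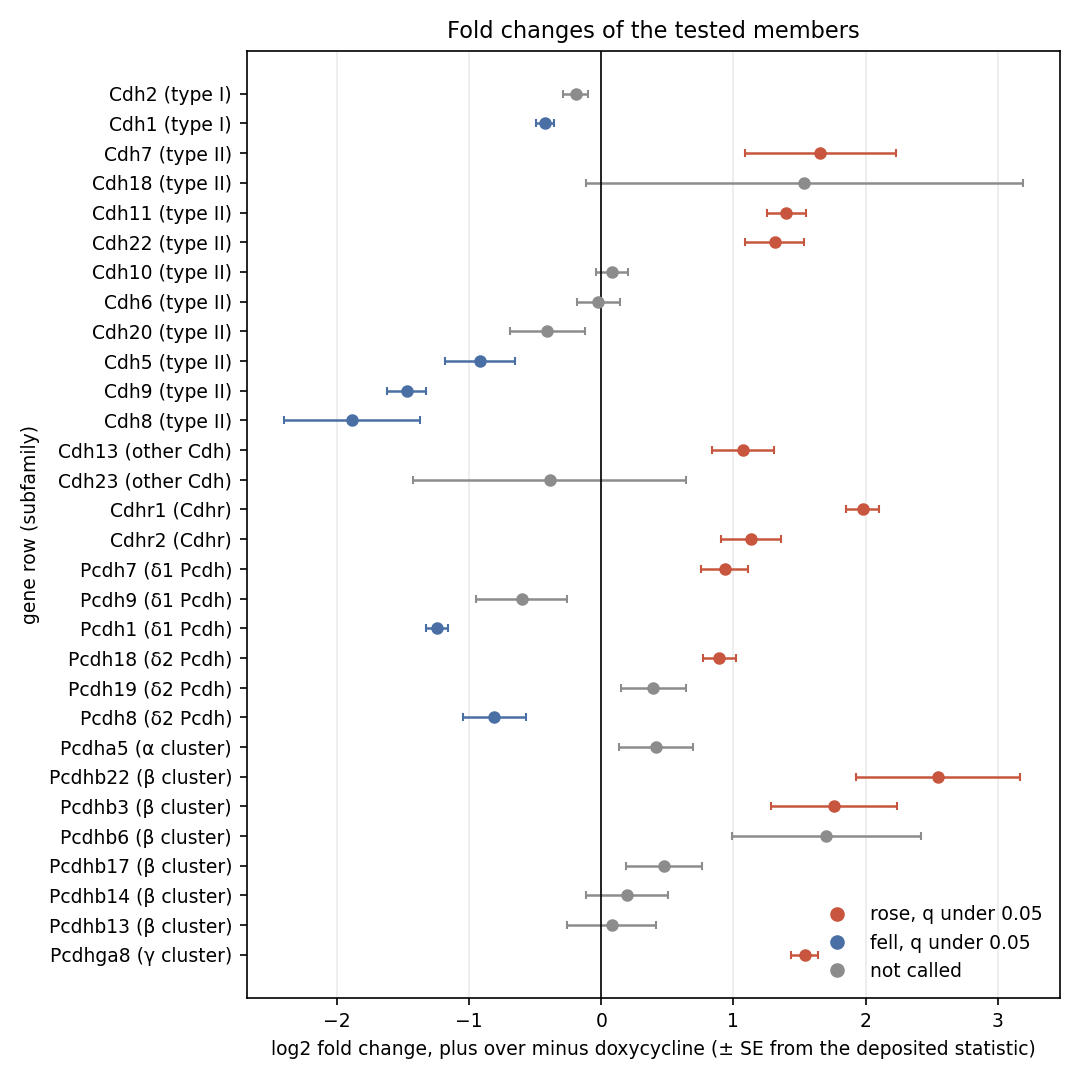
Log2 fold change (plus over minus) of the 30 tested members, grouped by subfamily, with bars of 1 SE derived from the deposited statistic; red rows rose, blue rows fell and grey rows were not called at q under 0.05. Type II cadherins and the nonclustered protocadherins have members on both sides of 0, and all 8 tested clustered rows lie above it. Of these clustered rows, Pcdhb3, Pcdhb6 and Pcdhb22 could be tested through the higher group alone. Pcdhb13 and Pcdhb14 lie within 1 SE of 0.

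Called members at 1 FPKM or more with an entry in the RefSeq promoter table are shown with the sequence around the start site of that entry. They are Cdhr1, Pcdh18 and Pcdh7, which rose, and Cdh9, which fell. Each window runs from 250 bases before to 50 bases after the start, 5′ to 3′ on the gene's strand, in build GRCm38.p6. The rows are in mm9, and the entries' starts were not matched to those of the rows. Between the builds the Cdh9 start moves less than those of Cdh6, Cdh10 and Cdh12, so its window may lie before its row. The Cdh18 start moves more than those of Cdh6, Cdh10 and Cdh12, so its window may lie inside its row. The windows of Cdh9 and Cdh18 were kept in the motif counts. Positions are chr14:37098298-37098597 on the minus strand for Cdhr1, chr3:49757267-49757566 on the minus strand for Pcdh18, chr5:57717831-57718130 on the plus strand for Pcdh7 and chr15:16728665-16728964 on the plus strand for Cdh9. Capitals mark matches, on either strand, to the GC box GGGCGG bound by Sp factors, the E-box CAGGTG bound by Snail and Zeb repressors, or the TCF/LEF core CTTTGA.
Cdhr1: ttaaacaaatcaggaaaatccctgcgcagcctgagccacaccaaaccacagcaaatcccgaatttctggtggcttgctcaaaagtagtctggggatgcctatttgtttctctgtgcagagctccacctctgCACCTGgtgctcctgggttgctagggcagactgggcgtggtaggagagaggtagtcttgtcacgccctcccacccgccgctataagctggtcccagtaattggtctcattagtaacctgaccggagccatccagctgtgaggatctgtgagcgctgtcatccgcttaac
Pcdh18: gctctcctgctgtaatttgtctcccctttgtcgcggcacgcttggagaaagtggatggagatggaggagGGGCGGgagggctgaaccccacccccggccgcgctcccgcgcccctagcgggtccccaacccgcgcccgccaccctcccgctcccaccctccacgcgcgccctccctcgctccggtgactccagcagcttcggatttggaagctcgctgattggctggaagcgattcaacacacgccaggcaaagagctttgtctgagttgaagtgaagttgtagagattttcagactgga
Pcdh7: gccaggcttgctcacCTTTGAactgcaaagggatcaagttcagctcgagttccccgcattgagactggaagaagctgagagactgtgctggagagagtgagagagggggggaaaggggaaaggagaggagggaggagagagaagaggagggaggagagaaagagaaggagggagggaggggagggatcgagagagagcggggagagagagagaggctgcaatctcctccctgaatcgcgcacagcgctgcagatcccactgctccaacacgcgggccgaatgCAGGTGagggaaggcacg
Cdh9: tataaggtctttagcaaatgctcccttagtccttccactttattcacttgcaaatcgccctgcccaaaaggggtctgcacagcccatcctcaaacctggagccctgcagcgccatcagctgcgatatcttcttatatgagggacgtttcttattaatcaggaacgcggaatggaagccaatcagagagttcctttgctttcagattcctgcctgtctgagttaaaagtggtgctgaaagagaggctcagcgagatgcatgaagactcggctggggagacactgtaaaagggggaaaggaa

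Counted from the start site, Cdhr1 held an E-box at -119, Pcdh18 a GC box at -181, and Pcdh7 a TCF/LEF core at -235 and an E-box at 32. Cdh9 held none of these letters. No printed matches overlapped. The table had entries for 25 members in 28 windows. Cdh1, Cdh5 and Pcdh1, which fell, had no entry, nor had Cdh11, Cdh13 and the called clustered rows, which rose. The counts below therefore leave out Cdh1 and cover only part of the 11 members that rose and 6 that fell. A GC box lay in 28.6% of the members' windows and 35.7% of all 32851 windows, an E-box in 25% and 20.2%, and a TCF/LEF core in 10.7% and 16%. Cdh7 had several windows, each with an E-box. Counted once per gene, the members' shares were 32%, 20% and 12%, beside 38.2%, 22.6% and 18.2% of all genes. By gene, the E-box was found in 4 of 6 members that rose (Cdhr1, Cdhr2, Cdh7 and Pcdh7), in 0 of 3 that fell, in 0 of 7 tested without a call and in 1 of 9 not tested, beside 22.6% of all 27025 genes of the promoter table. The GC box was found, in the same order, in 2 of 6, 1 of 3, 2 of 7 and 3 of 9, beside 38.2% of all genes. The TCF/LEF core was found in 2 of 6, 0 of 3, 0 of 7 and 1 of 9, beside 18.2% of all genes. These matches are counts of letters in a short window, and binding was not measured.

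Among type I cadherins, Cdh1 (E-cadherin) fell from 134 to 99.7 FPKM, a 1.34-fold change (log2 -0.43, SE 0.071; q = 3.76e-08 in the authors' deposited table). Its row XLOC_031278 covers chromosome 8, positions 109127251 to 109194146 of mm9. Cdh1 was the only called member at 1 FPKM or more with a fold under 1.5. Cdh2 (N-cadherin; chromosome 18, 16747386 to 16967755) stood at 6.15 and 5.37 FPKM without a call (log2 -0.19, 95% interval -0.37 to -0.015; unadjusted p = 0.0336 and q = 0.118 in the authors' deposited table). Cdh1 remained the higher of the pair in both groups. Cdh3 (P-cadherin), whose row ends 46.4 kb before that of Cdh1, was listed at 5.32 and 6.22 FPKM with status FAIL and was not tested. Cdh4 (R-cadherin) had no row of its own, and the row it shares with Gm10711 stood at 0.869 and 0.993 FPKM (q = 0.44 in the authors' deposited table).

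Cdh1 is also made by visceral endoderm, whose 11 markers summed to 262 FPKM in the minus group and 198 FPKM in the plus group. The largest of them, Dab2 (85.2 and 56.6 FPKM), had status FAIL and was not tested. Of 10 tested, 6 fell and 4 had no call, a called share of 60% beside 23.2% of all tested rows. None of the 11 markers was at 0. Their part in the fall of Cdh1 was not tested. In bulk libraries, fewer cells of a type and less RNA per cell cannot be told apart.

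Type II cadherins split by direction. By the authors' deposited table, 10 of 13 rows were tested, with 3 higher, 3 lower and 4 without a call. Beside a called share of 23.2% over all tested rows, that of the type II rows was 60%. Their summed level was 9.67 FPKM in the minus group and 10.5 FPKM in the plus group. Cdh11 (OB-cadherin), typical of mesenchyme, rose from 0.475 to 1.26 FPKM (2.64-fold, log2 1.40, SE 0.15; chromosome 8, 105156895 to 105309011). Cdh22, a cadherin of the brain, rose from 0.290 to 0.721 FPKM (log2 1.31, SE 0.22) and Cdh7, known from neural tube and neural crest, from 0.206 to 0.649 FPKM (log2 1.66, SE 0.57). The q of Cdh11 was printed as 0, that of Cdh22 was 8.49e-08 and that of Cdh7 was 0.0196 in the authors' deposited table. Cdh7 was the 1 called member with q above 0.01.

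Markers of the primitive streak and early mesoderm were higher in the same group as Cdh11. Of 9 such markers, all tested, 7 rose, 0 fell and 2 had no call in the authors' deposited table (median log2 1.45), and none was at 0. Beside a called share of 23.2% over all tested rows, that of these markers was 77.8%. Their summed level was 24.7 FPKM without and 165 FPKM with doxycycline. Brachyury (T), a transcription factor of the streak, rose from 0.745 to 103 FPKM and Mesp1, of early mesoderm, from 0.0948 to 1.64 FPKM. Fibroblasts also express Cdh11, and feeder cells had been used. Of 11 fibroblast markers 9 were tested, of which Col1a1 rose (1.11 to 4.43 FPKM), Dcn, Pdgfrb and Thy1 fell and 5 were not called. Beside the same 23.2%, the called share of these markers was 44.4%. Their summed level was 17.9 FPKM without and 17.2 FPKM with doxycycline, and none was at 0. The part of either list in the rise of Cdh11 was not tested.

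Cdh9, a synaptic cadherin of the brain, fell from 1.29 to 0.465 FPKM (2.77-fold, log2 -1.47, SE 0.15; chromosome 15, 16707856 to 16786849). Cdh10, the next member along chromosome 15 (18748702 to 18943991), stood at 2.13 and 2.25 FPKM (log2 0.082, 95% interval -0.16 to 0.32; q = 0.757 in the authors' deposited table). Cdh6 (K-cadherin) on the same chromosome stood at 0.774 and 0.762 FPKM. Cdh18 (0.0625 and 0.181 FPKM) was not called either, with an SE of 1.65 on the log2 scale, and Cdh12 (0.0284 and 0.0169 FPKM) was not tested. Of the 5 members on chromosome 15, Cdh9 alone was called, which is 25% of the 4 tested, beside 23.2% of all tested rows. The difference between Cdh9 and Cdh10 was not tested.

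Cdh8, another cadherin of neurons, fell from 0.220 to 0.0595 FPKM (log2 -1.89, SE 0.52) and Cdh5 (VE-cadherin of endothelium) from 0.181 to 0.0961 FPKM (log2 -0.92, SE 0.26). Both were low in each group, and Cdh8 was among the 5 members that could be tested through the higher group alone. Of 9 neural markers 6 had a row and 4 were tested, of which Nes, Pax6 and Zic2 fell, 0 rose and 1 was not called in the authors' deposited table (median log2 -1.29). Beside a called share of 23.2% over all tested rows, that of these markers was 75%. By value, 3 of the 6 were lower in the plus group and 3 higher (Dcx, Neurog2 and Zic1). Of the higher ones, Dcx (0.0286 and 0.0655 FPKM) and Neurog2 (0.0238 and 0.0510 FPKM) were not tested. Summed levels of the 6 markers were 66.2 FPKM without and 28.3 FPKM with doxycycline, most of it Zic2 (51.2 and 22.6 FPKM), and none was at 0. Their part in the fall of Cdh9 and Cdh8 was not tested. Of 9 endothelial and blood markers 7 were tested, of which Esam (0.728 to 6.16 FPKM) and Pecam1 (2.50 to 5.14 FPKM) rose, Etv2, Tal1, Kdr and Flt1 fell and 1 was not called. The called share was 85.7%, beside 23.2% of all tested rows. Summed levels of these markers were 11.3 and 14.5 FPKM, although only Esam and Pecam1 had a higher value in the plus group and 7 markers a lower one. Emcn was listed at 0 in the plus group. Their part in the fall of Cdh5 was not tested. Cdh20 (0.127 and 0.0960 FPKM) was tested without a call, Cdh19 (0.00525 and 0.00631 FPKM) was not tested, and both lie on chromosome 1 with Cdh7. Cdh24 was listed at 3.88 and 3.94 FPKM with status FAIL, at a locus it shares with other rows of that status.

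The largest rise of a member at 1 FPKM or more was that of Cdhr1, a cadherin-related gene known from photoreceptors. Cdhr1 went from 0.813 to 3.20 FPKM (3.94-fold, log2 1.98, SE 0.12; chromosome 14, 37891036 to 37911497), and its q was printed as 0 in the authors' deposited table. Cdhr2, which links microvilli of the intestinal brush border, rose from 0.132 to 0.290 FPKM (log2 1.13, SE 0.22). Its partner Cdhr5 was listed at 0.00798 and 0.0476 FPKM and Cdhr3 at 0.00904 and 0.00650 FPKM, and neither was tested. Cdh13 (T-cadherin), which is held in the membrane by a lipid anchor and has no cytoplasmic tail, rose from 0.262 to 0.551 FPKM (log2 1.07, SE 0.23). Cdh23, a component of the tip links of hair cells, stood at 0.147 and 0.112 FPKM (SE 1.03 on the log2 scale) without a call. Pcdh15, its tip-link partner, was listed at 0.00153 and 0.0112 FPKM and not tested. Cdh16, Cdh17 and Cdh26 lay between 0.00327 and 0.0209 FPKM and were not tested.

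Nonclustered protocadherins also moved both ways. Of 12 rows 6 were tested, and the authors' deposited table called 2 higher, 2 lower and 2 neither way. The called share was 66.7%, beside 23.2% of all tested rows. Pcdh1, an epithelial protocadherin of the delta-1 class, fell from 14.4 to 6.08 FPKM (2.37-fold, log2 -1.24, SE 0.085; chromosome 18, 38345569 to 38388799). Pcdh1 was the most abundant protocadherin row in the minus group. Pcdh7, of the same class, rose from 0.544 to 1.04 FPKM (log2 0.93, SE 0.18; chromosome 5, 58109260 to 58520590), and Pcdh9 (0.112 and 0.0738 FPKM) was not called. In the delta-2 class, Pcdh18 rose from 0.704 to 1.31 FPKM (log2 0.89, SE 0.13; chromosome 3, 49547218 to 49561238). Pcdh8, the paraxial protocadherin of somite-forming mesoderm, fell from 0.228 to 0.130 FPKM (log2 -0.81, SE 0.24). Pcdh19 stood at 0.158 and 0.208 FPKM without a call. The q values of Pcdh7, Pcdh18 and Pcdh8 were 2.16e-06, 5.80e-11 and 0.00426 in the authors' deposited table, and for Pcdh1 it was printed as 0.

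The other 6 nonclustered protocadherins were not tested. Pcdh17 stood at 0.0593 and 0.0301 FPKM, and the authors' deposited table gave it an unadjusted p of 0.000901 while its status kept it out of the adjustment. Pcdh12, known from endothelium, was listed at 0.0192 and 0.00420 FPKM and Pcdh20 at 0.0341 and 0.0659 FPKM. Pcdh10 (0.0356 and 0.0310 FPKM) and Pcdh11x (0.0198 and 0.0352 FPKM) were near those values.

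Clustered protocadherins are arranged as alpha, beta and gamma groups on chromosome 18. In the alpha and gamma groups each variable first exon is spliced to shared constant exons, while each beta gene is a single exon. The table held 2 alpha rows, 22 beta rows and 1 gamma row. By the q of the authors' deposited table, 3 of 8 tested clustered rows rose and the other 5 had no call. Over all tested rows 23.2% were called and 10.5% rose. Of the 3 that rose, Pcdhb3 and Pcdhb22 were among the 5 members that could be tested through the higher group alone, so the count is a description.

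The gamma row had the highest level of the clustered rows. Listed as Pcdhga8, it rose from 3.24 to 9.41 FPKM (2.91-fold, log2 1.54, SE 0.10; chromosome 18, 37833989 to 38001527). The authors' deposited table printed its q as 0. That row spans 168 kb, against 116 kb for Pcdhga8 and 180 kb from the start of Pcdhga1 to the cluster end in GENCODE vM21. Its value therefore covers several gamma genes and was not assigned to 1 of them. Gm16882, which shares the locus, is another row there.

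Of the alpha rows, Pcdha5 stood at 0.280 and 0.373 FPKM (log2 0.41, SE 0.28; q = 0.333 in the authors' deposited table). Pcdha3 was listed at 0.00841 and 0.0161 FPKM and not tested. Both share 1 locus of 257 kb (37089939 to 37347311), the length of the whole alpha group in GENCODE vM21.

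The beta rows were near the floor of the table, with a median of 0.0164 FPKM in the minus group and 0.0316 FPKM in the plus group and a sum of 0.557 and 1.17 FPKM. Only 6 of 22 were tested. Pcdhb22, the last of the group and the nearest to the gamma genes, rose from 0.0475 to 0.278 FPKM (log2 2.55, SE 0.62) and Pcdhb3 from 0.0224 to 0.0759 FPKM (log2 1.76, SE 0.47). Their q values were 0.000349 and 0.00151 in the authors' deposited table. Pcdhb6 (0.0282 and 0.0919 FPKM; q = 0.0683), Pcdhb13, Pcdhb14 and Pcdhb17 were tested without a call in the authors' deposited table.

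The deposited value was higher in the plus group for 21 of the 22 beta rows (95.5%), Pcdhb12 (0.0407 and 0.0356 FPKM) being the other. Over all 9217 tested or NOTEST rows whose higher group lay in the same range of 0.00301 to 0.278 FPKM, 55.4% were higher in the plus group. The median log2 ratio was 1.26 over the 21 beta rows with both groups above 0 and 0.085 over 7805 such rows of the table. Pcdhb10 was listed at 0 in the minus group and at 0.00301 FPKM in the plus group. Beta genes are alike in sequence and lie within 256 kb, so reads may be shared between rows and the 22 values are not independent. With 16 of them untested, the common direction is a description of the 2 group values.

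**Figure D3:**
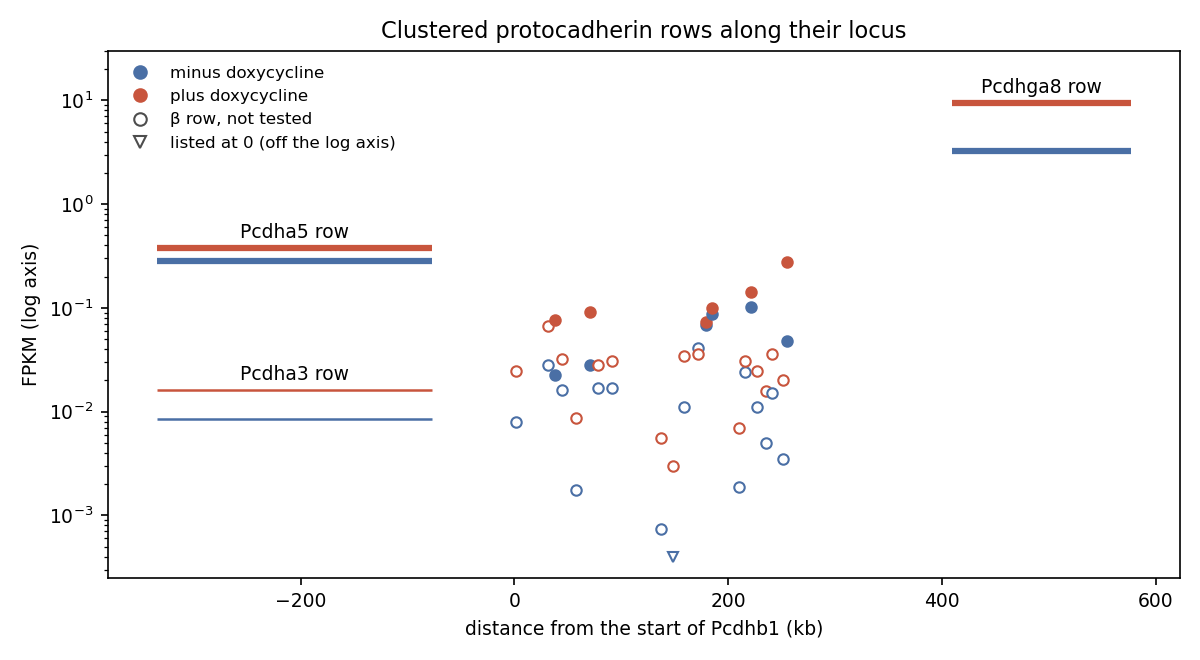
FPKM (log axis) of the clustered protocadherin rows against distance in kb from the start of Pcdhb1, minus group in blue and plus group in red; circles are beta rows (open where not tested), lines span the alpha and gamma rows, and the triangle marks Pcdhb10, listed at 0 without doxycycline. Beta rows reach at most 0.278 FPKM and the Pcdhga8 row stands at 3.24 and 9.41 FPKM.

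By chromosome, members lay in groups that did not move as blocks. On chromosome 8 all 5 tested members were called, of which Cdh11 and Cdh13 rose and Cdh1, Cdh5 and Cdh8 fell. Over all tested rows 23.2% were called, 10.5% higher and 12.7% lower, and the count of 5 is a description. On chromosome 18, Pcdh1 fell although its row starts 344 kb after the end of the gamma row that rose. On chromosome 14, Cdhr1 rose, Pcdh8 fell and Pcdh9 was not called.

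Genes that work with cadherins were read from lists. Among catenins and junction adaptors, the authors' deposited table called 1 of 19 tested genes higher, 5 lower and 13 neither way. The median log2 fold change was -0.14, beside -0.029 over all tested rows, and the called share was 31.6%, beside 23.2%. Beta-catenin (Ctnnb1), which links cadherins to the cytoskeleton and also transmits Wnt signals, stood at 284 and 257 FPKM (log2 -0.14, SE 0.11). The p120-catenin gene Ctnnd1 stood at 45.1 and 40.8 FPKM, alpha-catenin (Ctnna1) at 88.2 and 95.5 FPKM and plakoglobin (Jup) at 25.0 and 26.5 FPKM, none of them called. Pkp2, a plakophilin of desmosomes, fell from 24.4 to 9.48 FPKM (2.58-fold) and Limd1, a LIM-domain protein of junctions, from 7.85 to 3.05 FPKM (2.57-fold). Chosen after their values were seen, the other calls were Vcl (10.9 to 7.34 FPKM), Mllt4 and Pard3, which fell, and Pkp1 (0.0427 to 0.142 FPKM), which rose.

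Of 4 tested desmosomal genes (desmosomal cadherins and desmoplakin), 1 rose, 2 fell and 1 had no call (median log2 -0.15). These calls, likewise chosen after their values were seen, were Dsc3 (0.0271 to 0.0880 FPKM), which rose, and Dsc2 (2.65 to 1.93 FPKM) and Dsp (3.46 to 2.90 FPKM), which fell. Of 10 tested Fat, Dchs, Celsr, Clstn and Ret genes, which hold the other branches of the cadherin superfamily, 1 rose, 3 fell and 6 had no call (median -0.14). Celsr1, Celsr3 and Ret fell and Clstn2 (0.0372 to 0.0924 FPKM) rose, again named with their values in view. Nectins and related genes had 2 of 7 lower and 5 without a call (median 0.18). Pvrl1 (nectin-1) fell from 5.99 to 1.88 FPKM (3.19-fold, log2 -1.67, SE 0.085), and the epithelial adhesion gene Epcam, chosen after its values were seen, from 125 to 106 FPKM. Among zinc-finger and bHLH repressors known to act on the Cdh1 promoter, 2 of 7 tested rose, 1 fell and 4 had no call (median 0.26). Snai1 rose from 1.64 to 4.02 FPKM (2.45-fold) and Twist1 fell from 1.33 to 0.803 FPKM (1.66-fold). Zeb2, named with its values in view, rose from 0.382 to 0.986 FPKM. The part of these repressors in the fall of Cdh1 was not tested. Of proteases and turnover factors that act on cadherins 2 of 7 rose and 5 had no call (median 0.19); those that rose were Adam10 (6.61 to 8.60 FPKM), a sheddase of classical cadherins, and Mmp14 (11.2 to 14.8 FPKM), both chosen after their values were seen. Of chromatin factors known to act on the protocadherin clusters 4 of 12 fell and 8 had no call (median -0.14). The cohesin subunit gene Stag2 fell from 42.2 to 25.6 FPKM (1.65-fold), and Dnmt3a, Nipbl and Rest, named with their values in view, fell less than 1.5-fold. Dnmt3b had status HIDATA and Smchd1 and Wapal status FAIL, so these 3 were not tested. Ctcf, which loops the cluster promoters to their enhancers and was chosen after its values were seen, stood at 50.9 and 46.1 FPKM without a call. Called shares of tested genes were 75% for desmosomal genes, 40% for the Fat to Ret list and 28.6% for nectins and related genes. They were 42.9% for repressors, 28.6% for proteases and turnover factors and 33.3% for chromatin factors. Over all tested rows 23.2% were called, and these shares of small lists are descriptions.

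**Figure D4:**
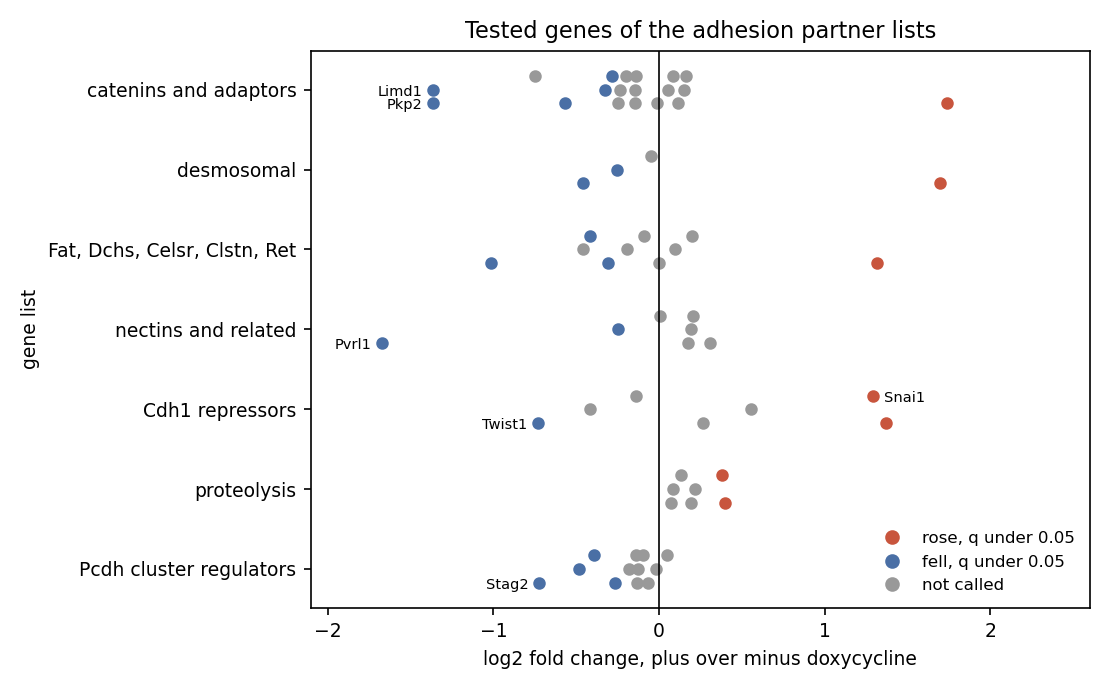
Log2 fold change (plus over minus) of each tested gene in 7 lists of cadherin partners and regulators; red genes rose, blue genes fell and grey genes were not called, and names mark called genes at 1 FPKM or more with at least a 1.5-fold change. Pvrl1, Pkp2 and Limd1 stand farthest to the left, and Snai1 is the named gene on the right.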

How the data were processed

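Poly(A)-selected RNA of 6 libraries was sequenced, per the labels' protocols, which mention no strand marking. The submitters' processing notes name mm9, Cuffdiff, Cufflinks 2.0.2, Picard, Bowtie and TopHat2 2.0.8; annotation, scaling and filters are, in the sources used here, not given. The deposited table gives 1 FPKM value per group, the log2 fold change, a test statistic (a score), a p-value and a q-value per gene row, per the file headers. Values per library were not used here, so the authors' calls were used, as the design provided. The 2-sided normal p of the statistic equalled the deposited p-value to within 2.84e-06 over 18284 rows, so the statistic was used as a normal score. That it is the log2 fold change over its SE was assumed, and the SE rests on this. Benjamini-Hochberg adjustment over 18537 rows gave the deposited q to within 1.79e-06. The code for the SE and the adjustment was run on simulated data built on the same assumption, which cannot check that assumption. Fold changes are ratios of deposited values.

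Members and lists were chosen with earlier results of these data known. Members called, or tested at 1 FPKM or more, are named, and the others are given by values or ranges. Of the lists, called genes at 1 FPKM or more with a 1.5-fold change and 4 catenins are named by rule; the other partner genes, and the marker genes, were chosen after their values were seen. Rows naming several genes were no members, and 35 GENCODE vM21 symbols that match the rule, mostly alpha and gamma protocadherins, had no row of their own here. Of the members, 19 share a locus with another row. Among them are the called rows Cdh8, Cdh11, Cdh13, Cdh22, Pcdh1 and Pcdhga8, and no beta row. Starts in the table were read as 0-based, because 17 of 62 member spans then equalled GENCODE spans and 0 did otherwise; positions are given from 1. Alternatives were a q of 0.01, a fold of 1.5, a filter at 1 FPKM, centring, pseudocounts of 0.1 and none, and rows with a locus of their own. Python 3.11.15, numpy 2.4.6, pandas 2.3.3, scipy 1.17.1 and matplotlib 3.10.9 were used. Depth is unknown, so no counting interval is given.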

Additional observations from a re-analysis of the deposited data

How the results depend on the processing

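Of 17 called members, 16 were called at q under 0.01, 16 with a fold of at least 1.5 and 17 with fold changes centred on the median of -0.044. Cdh7 was lost at the stricter q and Cdh1 with the minimum fold. With only rows at 1 FPKM or more, 8 members were called (7 nonclustered, 1 clustered), and with rows that share a locus left out 11 (9 nonclustered); in both, fewer rows entered. The members' median difference was 0.26 with a pseudocount of 0.1 FPKM, 0.40 without one and 0.23 at 1 FPKM or more, against 0.059 with a pseudocount of 1 FPKM, which shrinks low rows most. Of 24 called partner genes, 11 kept a fold of at least 1.5. Thresholds and filters leave a member's fold change as it is, and centring only subtracted the median of -0.044. The direction of a named member was therefore not put to a test. The median SE was 0.11 at 1 FPKM or more and 0.49 below it, which limits what rows under 1 FPKM can show. No paired analysis was possible because the table holds 1 value per group; for the same reason leaving out replicates and a count test were not run.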

Other observations

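Within 500 kb of the clusters on chromosome 18, the table held 40 rows that were no members, of which 30 were tested. By the q of the authors' deposited table, 2 of them rose, 3 fell and 25 had no call, with a median log2 fold change of -0.072. The share called was 16.7%, beside 23.2% over all tested rows. Those that rose were Tmco6 (11.8 to 15.5 FPKM) and Cd14, the lipopolysaccharide co-receptor (0.244 to 0.562 FPKM). Those that fell were Taf7 (135 to 117 FPKM), Arap3 (2.23 to 1.54 FPKM) and Hbegf, a ligand of the epidermal growth factor receptor (1.45 to 1.04 FPKM). These genes were chosen after their values were seen.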
